A study of Homo sapiens with 4 samples.

Results

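The genes described here are 38 genes of homologous recombination, the Fanconi anaemia pathway and the DNA damage checkpoint, taken by name from gene sums of the transcript counts. They were measured in A549, an established human lung adenocarcinoma cell line, by RNA sequencing of poly-T selected RNA in 4 libraries. The 2 control libraries came from cells in DMEM with serum and antibiotics, and their treatment label reads none. The 2 deprived libraries came from cells washed in PBS and kept in DMEM with serum but no glutamine, for 24 hours (deprived 1) and 25 hours (deprived 2) by the sample labels, against 24 hours for both in the protocol. No label says whether the libraries of a group came from separate cultures, so p-values measure the spread between these libraries, which may be technical. All 38 genes were found among 58560 annotated genes with an ID in the files, and all 38 passed the filter on low counts that left 24527 genes for testing.

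Homologous recombination repairs a double-strand break, or a broken replication fork, by copying the sister chromatid. The ends are resected to single strands, BRCA1 and BRCA2 with their partners prepare them for pairing with the sister, RAD54-type motors drive strand exchange, and the joint molecules are then dissolved or cut. The Fanconi anaemia proteins sense crosslinks that join both DNA strands and mark FANCD2 and FANCI with ubiquitin, while ATM and ATR signal damage through CHEK2 and CHEK1. Since the sister chromatid is needed, homologous recombination is known to be most active in S and G2 phase of cycling cells.

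Most of these genes had less RNA after a day without glutamine. Calls were made with edgeR (quasi-likelihood F test) at a Benjamini-Hochberg adjusted p below 0.05, computed over every gene tested. Without glutamine 32 of the 38 genes were lower, where 24.4% of all tested genes and 29.8% of protein-coding genes were called lower. ATR, RAD50 and RAD51C were higher, 3 of 38, where 25.2% of all tested genes and 34.3% of protein-coding genes were. In either direction 49.6% of all tested genes were called. MUS81, SLX4 and XRCC3 were not called. At least 2-fold decreases were called for 21 of the 38, against 15.3% of all tested genes, and none rose by 2-fold, against 12.4%. The median log2 fold change of the 38 genes was -1.07, beside -0.06 over all tested genes. In CPM (counts relative to the library total) scaled by the trimmed mean of M-values (TMM), the deprived libraries lay below both controls for 34 genes and above both for 4, so the groups overlapped for 0 genes. Among all tested genes 40.5% lay below and 36.1% above. In bulk RNA, fewer cells that express a gene and less of its RNA per cell cannot be told apart. The summed CPM of the 38 genes was 2123 and 2132 in the controls and 1247 and 1184 in the deprived libraries. Scaling by library size only gave 34 lower and 2 higher genes, with the median of all genes at -0.40 and that of the 38 at -1.41.

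**Figure D1:**
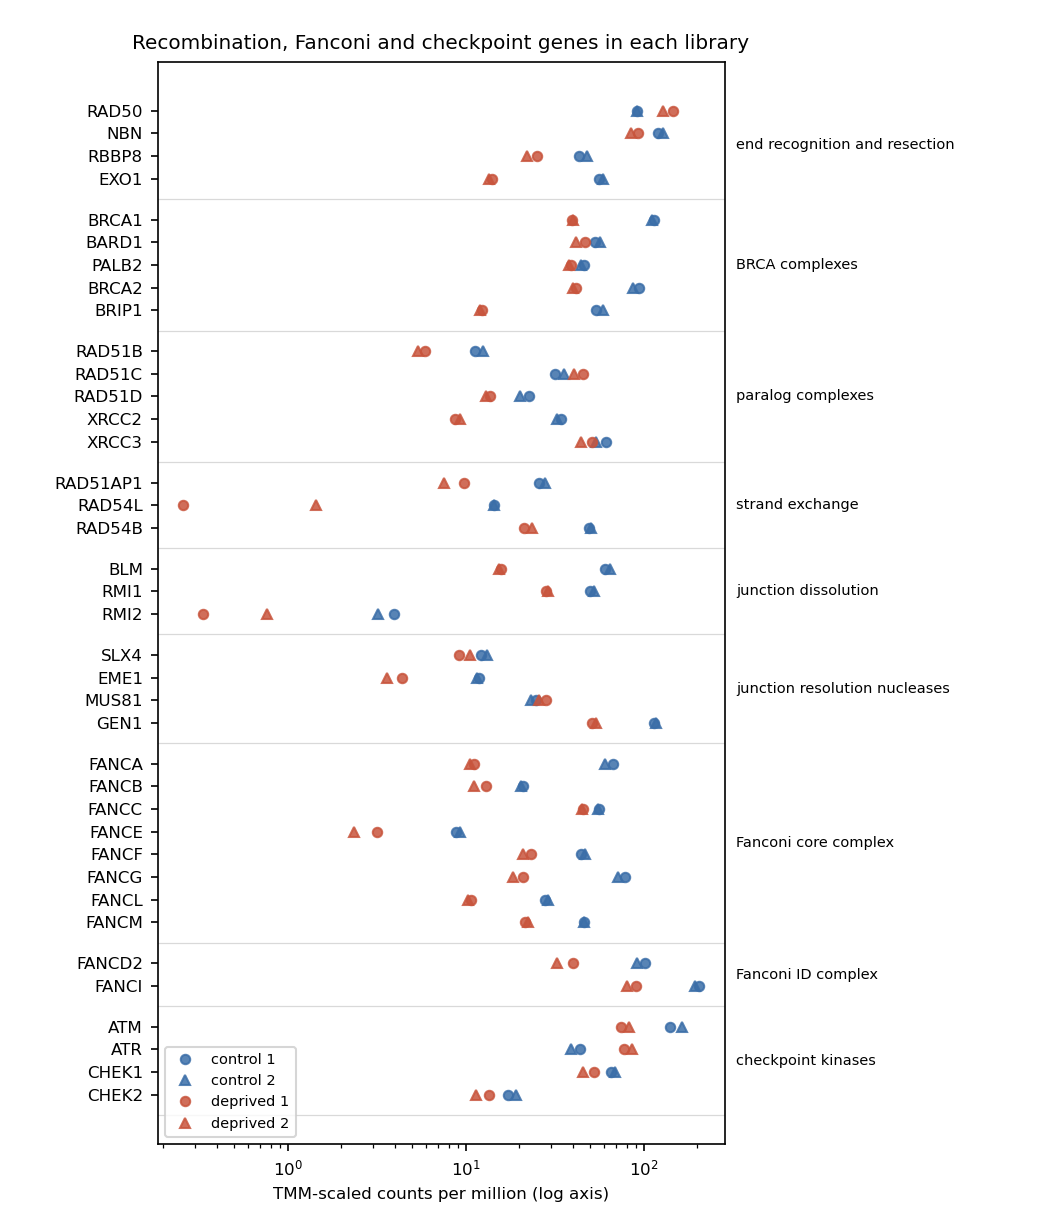
TMM-scaled CPM (log axis) of each of the 38 genes in the 2 control (blue) and 2 deprived (red) libraries, grouped by role; circles are replicate 1 and triangles replicate 2. The deprived points lie left of both controls for 34 genes and right of both for ATR, RAD50, RAD51C and MUS81.

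**Figure D2:**
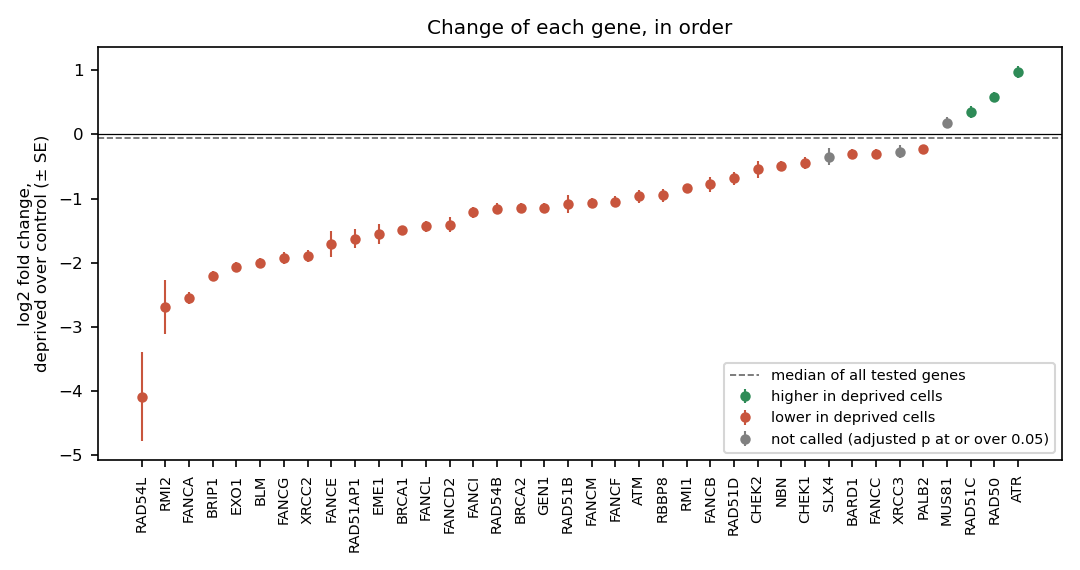
Change of each of the 38 genes (log2 scale, deprived over control, with SE), sorted, coloured by edgeR call; the dashed line is the median of all tested genes. The points run from -4.09 for RAD54L to 0.97 for ATR.

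The libraries held 101496318 and 101982373 counts in the controls and 123414592 and 120425759 in the deprived cells. Markers were checked as whole lists. The 6 epithelial genes summed to 8226 and 8387 CPM in the controls and to 4179 and 3566 in the deprived libraries, and 5 of the 6 fell. KRT8 averaged 5194 CPM in the controls and 800.2 without glutamine, while KRT7 rose, from 656 and 706 to 2160 and 1836 CPM. The 7 alveolar type II genes summed to 44.8 and 43.4 CPM in the controls and 32.1 and 33.4 in the deprived libraries, mostly from ABCA3, and 4 stayed under 1 CPM in every library, with the surfactant gene SFTPA1 at 0. In that list ABCA3 and NAPSA fell, and NKX2-1 (0.018 and 0.064 to 0.776 and 0.811 CPM) and LAMP3 (0.420 and 0.082 to 2.59 and 3.03 CPM) rose. All 6 fibroblast and 5 endothelial genes were under 1 CPM in every library, with sums of 1.27 to 2.39 and 0.124 to 0.910 CPM. The 6 blood genes summed to 26.6 and 12.7 CPM in the controls and 0.756 and 0.875 in the deprived libraries, mostly from CD14 and HBB. In the controls CD14 had 13.2 and 12.4 CPM, but HBB had 11.6 in control 1 and 0.227 in control 2. In all 5 lists both deprived sums were below both control sums, and the part of these differences in the results was not tested.

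Sequences upstream of the start were looked at because so many of the genes fell together. RefSeq promoter windows (build GRCh38.p14) matched 34 of the 38 genes, with 47 windows, since some genes have more than 1 listed start. NBN, RAD54B, FANCI and RMI2 had none. The 250 bases before each start were searched on both strands for the E2F-type heptamer TTCCCGC, and likewise for its relatives TTGGCGC, then also TTCGCGC, and further the form TTGCCGC. E2F proteins are the transcription factors that drive S-phase genes. At least 1 heptamer stood in the windows of 11 of 34 genes (32.4%), against 13.0% of the 27305 genes of the table. TTCCCGC alone stood in 9 genes (26.5%), against 6.66%. Counted by window, a heptamer stood in 27.7% of the 47 windows, against 10.9% of all 35116. The genes of the table were not matched to the 34 by expression, gene type or base composition. All 11 genes with a heptamer were called lower, with a median log2 fold change of -1.55 (range -4.09 to -0.30). Of the 23 without one, 17 were called lower, with a median of -0.95 (range -2.21 to 0.97). Over all tested genes 24.4% were called lower. That share was not computed for all genes with a heptamer, and the difference between genes with and without one was not tested. The CCAAT box stood in 16 of 34 (47.1%, against 37.0%), and TTTGAA, the core of the cell cycle genes homology region, in 3 (8.82%, against 16.1%). A match is a description of these letters and not a bound site.

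The windows below show where TTCCCGC lies in 5 genes that fell by more than 1.4 on the log2 scale and in FANCC, which has the heptamer and fell least of the 11. Each is 80 bases on the strand of the gene, 5′ to 3′, with the heptamers in capitals, as GCGGGAA where the motif is on the other strand.
RAD54L, chr1:46247602-46247681, + strand: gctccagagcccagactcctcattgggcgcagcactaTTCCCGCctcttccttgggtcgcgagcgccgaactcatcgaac
BLM, chr15:90717235-90717314, + strand: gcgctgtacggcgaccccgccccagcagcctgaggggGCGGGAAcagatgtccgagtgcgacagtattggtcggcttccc
FANCG, chr9:35079984-35080063, - strand: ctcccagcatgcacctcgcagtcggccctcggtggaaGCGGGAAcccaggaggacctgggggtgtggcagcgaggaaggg
RAD51AP1, chr12:4538810-4538889, + strand: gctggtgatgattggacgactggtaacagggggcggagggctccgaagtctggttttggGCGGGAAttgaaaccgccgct
BRCA1, chr17:43125369-43125448, - strand: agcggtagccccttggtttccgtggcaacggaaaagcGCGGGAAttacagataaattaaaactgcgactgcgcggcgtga
FANCC, chr9:95317712-95317791, - strand: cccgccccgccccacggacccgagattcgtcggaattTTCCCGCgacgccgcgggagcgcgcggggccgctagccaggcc
The heptamer ended 42 bases before the start in RAD54L, 67 in BLM, 77 in FANCG, 14 in RAD51AP1, 40 in BRCA1 and 38 in FANCC. By the GENCODE 29 gene spans, the BRCA1, FANCC and RAD51AP1 windows lie inside the gene, which has a start further upstream, the FANCG window lies partly inside it, and those of RAD54L and BLM lie before it.

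Of the 4 genes of end recognition and resection, 3 fell and 1 rose. EXO1, the exonuclease of long-range resection (chromosome 1, 241847967 to 241895148), had 56.2 and 59.1 CPM in the controls and 14.0 and 13.4 in the deprived libraries. It fell by 2.07 on the log2 scale (SE 0.08, edgeR adjusted p = 1.69e-05). RBBP8, which encodes CtIP, the starter of resection, had 43.3 and 48.1 CPM in the controls and 25.2 and 22.0 without glutamine (-0.95 ± 0.10). NBN, the nibrin subunit that brings ATM to breaks, went from 121 and 129 to 92.6 and 84.3 CPM (-0.50 ± 0.08). RAD50, the ATPase that tethers the ends in the same complex as NBN, moved the other way, from 92.0 and 91.0 to 145 and 129 CPM (0.58 ± 0.08, edgeR adjusted p = 0.00175). MRE11, the nuclease of that complex, which is not among the 38, fell from 49.4 and 49.2 to 16.0 and 17.2 CPM (-1.57 ± 0.08). The 3 subunit genes of the complex thus did not move together. Of the exonic bases of RAD50, 79.7% are shared with ENSG00000283782 on the same strand, to which the files give 178 to 825 counts, against 10027 to 15169 for RAD50.

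All 5 genes around BRCA1 and BRCA2 were lower, by very unequal amounts. BRIP1, the helicase that binds BRCA1 (chromosome 17, 61681266 to 61863521), had 53.6 and 58.6 CPM in the controls and 12.4 and 11.9 in the deprived libraries (-2.21 ± 0.08, edgeR adjusted p = 1.77e-05). BRCA1 itself (chromosome 17, 43044295 to 43170245) went from 114 and 111 to 39.6 and 40.1 CPM (-1.50 ± 0.07). BRCA2, which acts on the resected single strands, went from 93.9 and 87.0 to 41.5 and 40.0 CPM (-1.15 ± 0.07). For these 3 genes the distance between the groups was many times the distance between replicates. BARD1, the obligate partner of BRCA1 in its ubiquitin ligase, had 53.2 and 56.4 CPM in the controls and 46.8 and 41.8 without glutamine (-0.31 ± 0.08, edgeR adjusted p = 0.0262). PALB2, the bridge between BRCA1 and BRCA2, went from 46.2 and 44.5 to 38.9 and 38.2 CPM (-0.23 ± 0.07, edgeR adjusted p = 0.0338). The calls of BARD1 and PALB2 sat near the threshold and were lost in several alternative fits, including 2 of 4 fits that left out 1 library for BARD1 and 4 of 4 for PALB2.

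The 5 paralog genes RAD51B, RAD51C, RAD51D, XRCC2 and XRCC3, whose products form small complexes that assist recombination, did not move as a block: 3 fell, 1 rose and 1 was not called. XRCC2 (chromosome 7, 152644779 to 152676165) had 34.1 and 32.7 CPM in the controls and 8.71 and 9.22 in the deprived libraries, a fall of 1.90 on the log2 scale (SE 0.09, edgeR adjusted p = 3.11e-05). RAD51B went from 11.3 and 12.5 to 5.89 and 5.36 CPM (-1.08 ± 0.14), and RAD51D from 22.6 and 20.1 to 13.6 and 12.9 CPM (-0.69 ± 0.11). XRCC3 had 61.1 and 54.2 CPM in the controls and 51.0 and 44.5 without glutamine (-0.27 ± 0.10, edgeR adjusted p = 0.0660). Of its exonic bases, 76.7% lie opposite KLC1. KLC1 rose from 71.6 and 69.7 to 88.0 and 87.6 CPM (0.31 ± 0.07, edgeR adjusted p = 0.00898), and its part in the XRCC3 counts was not tested. RAD51C, found in both paralog complexes, went from 31.8 and 35.8 to 45.3 and 40.8 CPM (0.35 ± 0.09, edgeR adjusted p = 0.0246). That rise was at 0.01 (adjusted p = 0.918) with library size only and turned to -0.15 (adjusted p = 0.275) when transcripts of protein-coding type alone were summed. It also lost its call without control replicate 1 (0.25, adjusted p = 0.145) and without deprived replicate 1 (0.28, adjusted p = 0.0775).

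The 3 genes of strand exchange all fell. RAD54L, the motor protein of strand exchange (chromosome 1, 46247688 to 46278473), had 1652 and 1596 counts in the controls and 27 and 156 in the deprived libraries, which is 14.5 CPM in both controls against 0.259 and 1.44. The fitted log2 fold change was -4.09 (SE 0.69, edgeR adjusted p = 0.00380), the largest fall of the 38. The deprived libraries differed from each other more here than for other genes of this set, and the change was -3.32 without deprived replicate 1 and -5.79 without deprived replicate 2. RAD51AP1, which stimulates the formation of joint molecules, went from 25.6 and 27.9 to 9.78 and 7.58 CPM (-1.63 ± 0.15). RAD54B, a relative of RAD54L, went from 49.5 and 50.4 to 21.2 and 23.6 CPM (-1.16 ± 0.08). FSBP shares 59.1% of the exonic bases of RAD54B on the same strand and was at 14.3 to 20.8 CPM, and its part in the RAD54B counts was not tested.

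Joint molecules can be taken apart by dissolution, without crossing over, or by cutting. All 3 dissolution genes fell. BLM, the Bloom syndrome helicase (chromosome 15, 90717327 to 90816165), had 60.8 and 64.5 CPM in the controls and 15.8 and 15.4 in the deprived libraries (-2.00 ± 0.08, edgeR adjusted p = 1.77e-05). Its partner RMI1 went from 49.9 and 52.3 to 28.1 and 28.9 CPM (-0.84 ± 0.07). RMI2, the other small partner, was low, with 450 and 352 counts in the controls and 35 and 83 without glutamine, or 3.94 and 3.19 against 0.335 and 0.765 CPM (-2.69 ± 0.42). Its change was -2.21 without deprived replicate 1 and -3.39 without deprived replicate 2. TOP3A, the topoisomerase of the same complex and outside the 38, was slightly higher in deprived cells (log2 fold change 0.26, edgeR adjusted p = 0.0227).

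Of the 4 genes of the cutting nucleases, 2 fell and 2 were not called. GEN1, a resolvase that acts alone, went from 115 and 117 to 51.1 and 53.7 CPM (-1.14 ± 0.07, edgeR adjusted p = 6.16e-05). EME1 went from 11.9 and 11.5 to 4.39 and 3.60 CPM (-1.55 ± 0.16), while MUS81, the catalytic subunit it pairs with, had 24.7 and 23.1 CPM in the controls and 28.3 and 25.8 without glutamine (0.18 ± 0.09, edgeR adjusted p = 0.143). MUS81 was at -0.16 (adjusted p = 0.191) with library size only. Retained-intron transcripts held 48.7% and 48.9% of the EME1 counts in the controls and 70.8% and 57.5% in the deprived libraries. Over transcripts of protein-coding type alone the change of EME1 was -2.19 (edgeR adjusted p = 0.00127). SLX4, the scaffold that holds the nucleases, had 12.1 and 13.1 CPM in the controls and 9.21 and 10.6 in the deprived libraries (-0.35 ± 0.13, edgeR adjusted p = 0.0675). Both MUS81 and EME1 lie partly opposite other genes. The abundant LRRC59 overlaps 16.4% of the EME1 exons, and the abundant CFL1, with the scarce EFEMP2, 14.1% of those of MUS81. LRRC59 rose by 0.78 ± 0.08 and CFL1 fell by 1.20 on the log2 scale, and their part in the EME1 and MUS81 counts was not tested.

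All 8 genes of the Fanconi core complex and its anchor fell, 6 of them at least 2-fold. FANCA (chromosome 16, 89737549 to 89816657) had 66.9 and 60.4 CPM in the controls and 11.2 and 10.6 in the deprived libraries, a fall of 2.55 on the log2 scale (SE 0.09, edgeR adjusted p = 1.52e-05). FANCG, which binds FANCA, went from 78.2 and 71.2 to 20.9 and 18.4 CPM (-1.93 ± 0.10). FANCE, the link to FANCD2, went from 8.86 and 9.22 to 3.19 and 2.34 CPM (-1.71 ± 0.20). FANCL, the ubiquitin ligase subunit, went from 27.7 and 29.1 to 10.7 and 10.3 CPM (-1.44 ± 0.09). FANCM, the DNA translocase that anchors the complex, went from 46.1 and 46.0 to 21.6 and 22.4 CPM (-1.06 ± 0.07), and FANCF, the adaptor, from 44.6 and 46.8 to 23.2 and 20.8 CPM (-1.05 ± 0.09). FANCB, a partner of FANCL, fell less, from 20.9 and 20.4 to 13.0 and 11.1 CPM (-0.78 ± 0.12). FANCC fell least, from 56.0 and 55.4 to 45.4 and 45.2 CPM (-0.30 ± 0.07, edgeR adjusted p = 0.0111), and lost its call without control replicate 1 (adjusted p = 0.0639) or control replicate 2 (adjusted p = 0.0555). The values thus ranged from FANCA to FANCC within a single assembly.

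Both genes of the pair that the core complex marks with ubiquitin fell. FANCD2 (chromosome 3, 10026414 to 10101930) had 101 and 91.3 CPM in the controls and 40.1 and 32.5 in the deprived libraries (-1.41 ± 0.12, edgeR adjusted p = 0.000216). FANCI went from 203 and 194 to 90.6 and 80.7 CPM (-1.21 ± 0.08, edgeR adjusted p = 9.97e-05). This fall of FANCI rests on transcripts that are not of protein-coding type, as described with the transcripts, and was -0.14 (adjusted p = 0.684) over the coding type alone.

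Summed over all transcripts the 4 checkpoint kinases changed by less than 2-fold, and the 2 apical kinases went in opposite directions. ATM, which responds to double-strand breaks (chromosome 11, 108222484 to 108369102), had 141 and 164 CPM in the controls and 74.2 and 82.2 in the deprived libraries (-0.96 ± 0.10, edgeR adjusted p = 0.000512). ATR, which responds to stalled forks and single-stranded DNA (chromosome 3, 142449235 to 142578826), had 44.1 and 39.2 CPM in the controls and 77.6 and 86.0 without glutamine (0.97 ± 0.09, edgeR adjusted p = 0.000333). ATR was the only one of the 38 genes to come close to doubling, and it kept its call in all 13 alternative fits, from 0.64 to 1.05. CHEK1, the effector kinase of ATR, went from 65.3 and 68.9 to 52.7 and 45.8 CPM (-0.45 ± 0.09, edgeR adjusted p = 0.00797). CHEK2, the effector of ATM, went from 17.2 and 19.1 to 13.4 and 11.4 CPM (-0.55 ± 0.13, edgeR adjusted p = 0.0137), a call lost without control replicate 2 (adjusted p = 0.0589). Over transcripts of protein-coding type alone its change was -1.52 (adjusted p = 0.00112), as described with the transcripts. CHEK2 has 7 annotated pseudogenes named after it, and the files give 0 counts to each of them in every library.

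Because partners in a complex changed by unequal amounts, their levels relative to each other shifted. Levels were compared between genes per length, as TPM (length-normalised transcript abundance) computed here from the counts and the annotated transcript lengths. The ratio within a library does not depend on the scaling, but it depends on how reads were divided among transcripts. ATM stood at 2.66 and 2.98 times ATR in the controls and at 1.24 and 1.13 times in the deprived libraries. RAD50 was at 0.482 and 0.462 of NBN in the controls and at 0.991 and 0.982 without glutamine. BRCA1 was at 2.08 and 1.49 times BARD1 in the controls and at 0.764 and 0.710 without glutamine, and BRCA2 went from 0.553 and 0.558 to 0.302 and 0.297 of PALB2. The ratio of MUS81 to EME1 went from 1.51 and 1.65 to 4.36 and 6.44. MUS81 itself was at 24.1 and 23.5 TPM in the controls and 20.5 and 24.2 in the deprived libraries. In each of these pairs the deprived libraries lay outside the range of the controls. With 2 libraries a group the smallest p of a two-sided exact permutation test is 0.333, so none was run. Summed over all transcripts, the ratio of CHEK1 to CHEK2 was 1.86 and 2.08 in the controls and 1.86 and 1.81 in the deprived libraries. That of FANCD2 to FANCI was 0.434 and 0.421 against 0.416 and 0.374. In both pairs the deprived libraries also lay outside the range of the controls, below it, by small margins. For CHEK1 to CHEK2 the nearest values were 1.859 (deprived 1) and 1.863 (control 1). Over transcripts of protein-coding type alone, the log2 fold changes were -0.51 for CHEK1 and -1.52 for CHEK2. They were -1.51 for FANCD2 and -0.14 for FANCI, so the size of the shift in both ratios depends on the transcripts summed.

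Per length and summed over all transcript types, FANCI was the most abundant of the 38 in the controls, at 112 and 94.4 TPM. SLX4 was the least, at 3.94 and 3.92 TPM. Only 16.9% and 29.4% of the FANCI counts in the controls were of protein-coding type. For RAD51C in the deprived libraries it was 52.2% and 58.6%, so the ranks given here are not ranks of coding RNA. FANCG (69.3 and 56.9 TPM) and NBN (65.0 and 59.3 TPM) followed FANCI and overlapped each other. In the deprived libraries RAD51C (40.3 and 41.1 TPM) led, above FANCI (31.9 and 34.6), NBN (32.3 and 34.2), RAD50 (32.0 and 33.6) and XRCC3 (29.6 and 29.2). FANCI, NBN and RAD50 overlapped there. FANCG went from rank 2 to rank 18 of the 38 by mean TPM, and RAD50 from 19 to 4. ATR went from rank 33 to rank 13, and EXO1 from 12 to 23. RAD54L was lowest without glutamine, at 0.325 and 0.892 TPM, and overlapped RMI2 (0.343 and 0.987 TPM).

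The files list counts per transcript, so each gene could also be summed over its transcripts of protein-coding type alone. For 32 of the 38 genes this moved the log2 fold change by at most 0.2, and for FANCI, CHEK2 and EME1 by more than 0.5. In FANCI the coding type held 16.9% and 29.4% of the counts in the controls and 54.1% and 46.9% in the deprived libraries. The retained-intron transcript FANCI-212 took 11831 and 9944 counts in the controls and 2503 and 2771 without glutamine, while the coding transcript FANCI-201 had 2915 and 5511 against 3020 and 3495. The fall of the gene thus lay in the retained-intron and decay-type transcripts, as these counts divide the reads. The share of decay-type transcripts in FANCI was 31.4% and 22.8% in the controls and 19.1% and 20.6% without glutamine.

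CHEK2 showed the reverse. Its coding share was 68.2% and 67.9% in the controls and 35.4% and 36.9% in the deprived libraries. The coding transcript CHEK2-208 went from 870 and 1110 counts to 383 and 380, and the non-coding transcript CHEK2-225 from 138 and 25 to 597 and 469. The coding share of RAD51C went from 74.0% and 75.9% to 52.2% and 58.6%, with its decay-type transcripts going from 16.4% and 15.9% to 37.5% and 32.0%. In XRCC2 the non-coding transcript XRCC2-202 held 17.4% and 17.4% of the counts in the controls and 0 of 910 and 0 of 1001 counts without glutamine, which allows up to 0.330% and 0.300%. The retained-intron transcript of FANCL, FANCL-209, went from 13.8% and 14.3% to 27.7% and 28.5% of that gene's counts. Its own counts went down, from 438 and 457 to 309 and 319.

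The division of reads among similar transcripts was unstable between replicates, which limits these shares. ATM-201 held 0 and 12145 counts in control 1 and control 2, where ATM-203 held 13549 and 4001, although the sums of the gene were 16066 and 18055. RAD51AP1-201 likewise had 0 and 1545 counts in the controls, and EME1-202 had 0 and 129. EME1-201 differed between the groups instead, with 660 and 423 counts in the controls and 0 in both deprived libraries. The zeros allow up to 0.654% and 0.767% of the gene. The floors cover counting error only. The division between coding and other types also differed between replicates in some genes. In MUS81 the coding share was 82.1% and 46.7% in the controls, with decay-type shares of 3.94% and 38.2%. In RAD51AP1 the decay-type share was 4.17% and 16.6% in the controls. Sums over the coding type alone are exposed to such differences. The gene sums over all transcripts are less exposed to the division of reads than the single transcripts.

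**Figure D3:**
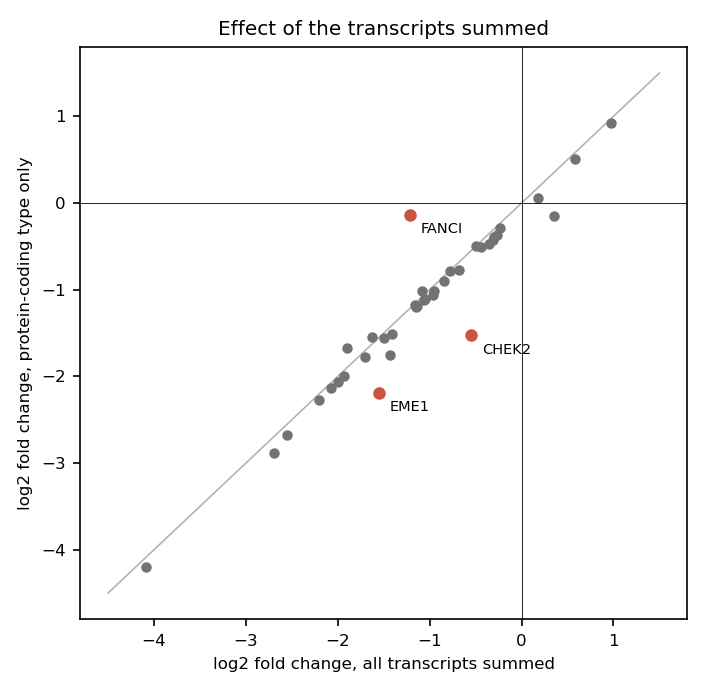
Log2 fold change of each of the 38 genes over transcripts of protein-coding type (vertical axis) against that over all transcripts (horizontal axis), with the line of equality. FANCI lies far above the line and CHEK2 and EME1 below it, each off by more than 0.5, and 32 genes lie within 0.2 of it.

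Other genes of the same pathways were less one-sided than the 38. Of 30 other recombination genes, 18 fell (60%) and 6 rose (20%), where 29.8% of protein-coding genes were lower and 34.3% higher. The median log2 fold change of this list was -0.54. DNA2, a nuclease of resection, went from 61.3 and 64.0 to 17.6 and 16.9 CPM (-1.86 ± 0.07), and MCM8, a helicase of recombination, from 70.7 and 65.9 to 17.4 and 18.2 CPM (-1.94 ± 0.08). SPIDR, a scaffold protein that binds BLM, fell by 1.57 on the log2 scale (SE 0.08). HELQ, a helicase of recombination repair, rose by 1.03 (edgeR adjusted p = 0.000412). SLX1A and SLX1B, which both fell, are near-identical copies, so their separate values are uncertain.

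Of 15 other Fanconi pathway genes, 5 fell (33.3%), 2 rose (13.3%) and 8 were not called (median -0.03), where 29.8% of protein-coding genes were lower and 34.3% higher. FAAP24, the partner of FANCM, went from 16.5 and 16.9 to 3.31 and 3.53 CPM (-2.29 ± 0.13). CENPX, a histone-fold partner of FANCM, went from 88.5 and 95.1 to 30.1 and 28.7 CPM (-1.64 ± 0.08), and UBE2T, the ubiquitin-conjugating enzyme of the pathway, from 23.6 and 28.8 to 10.6 and 8.46 CPM (-1.46 ± 0.16). REV3L, the catalytic subunit of the translesion polymerase zeta, moved the other way, from 69.6 and 68.3 to 206 and 202 CPM (1.57 ± 0.07, edgeR adjusted p = 2.33e-05).

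Of 22 other damage checkpoint genes, 11 fell (50%) and 4 rose (18.2%, median -0.30), where 29.8% of protein-coding genes were lower and 34.3% higher. TIMELESS, of the fork protection complex, went from 86.9 and 77.9 to 14.2 and 12.7 CPM (-2.61 ± 0.10), and CLSPN, the adaptor between ATR and CHEK1, from 8.75 and 19.0 to 1.58 and 1.92 CPM (-2.99 ± 0.39). The clamp that activates ATR has 3 subunits, and their genes went apart. RAD9A fell from 17.5 and 17.1 to 3.94 and 3.90 CPM (-2.14 ± 0.12), and HUS1 rose from 21.7 and 24.7 to 74.5 and 70.3 CPM (1.64 ± 0.09). RAD1 was not called (0.08, edgeR adjusted p = 0.395). PPM1D, the phosphatase that switches off ATM signalling and is a known p53 target, rose from 39.8 and 41.9 to 193 and 178 CPM (2.18 ± 0.08, edgeR adjusted p = 1.58e-05). WEE1, the kinase that holds back mitosis, had 92.1 and 90.5 CPM in the controls and 109 and 102 without glutamine (0.21 ± 0.07, edgeR adjusted p = 0.0532), and TP53BP1, which limits resection, was at 73.3 and 67.0 against 70.7 and 75.8 CPM (0.06 ± 0.08).

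The 17 genes of end joining, the repair that needs no sister chromatid, had 5 lower (29.4%) and 6 higher (35.3%, median 0.18), shares near the 29.8% and 34.3% of protein-coding genes. LIG4, the ligase of the classical route, rose from 16.4 and 17.3 to 49.7 and 46.8 CPM (1.52 ± 0.08, edgeR adjusted p = 3.81e-05). SHLD3, of the shieldin complex that protects ends from resection, rose from 4.80 and 4.67 to 12.0 and 12.1 CPM (1.35 ± 0.13). In the alternative route POLQ, its polymerase, fell from 82.1 and 74.7 to 21.3 and 21.5 CPM (-1.87 ± 0.08), and PARP1, its break sensor, fell from 105 and 96.8 to 61.4 and 60.2 CPM (-0.73 ± 0.07). With library size only the median of the end joining list turned to -0.15, and 3 of its genes were higher.

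**Figure D4:**
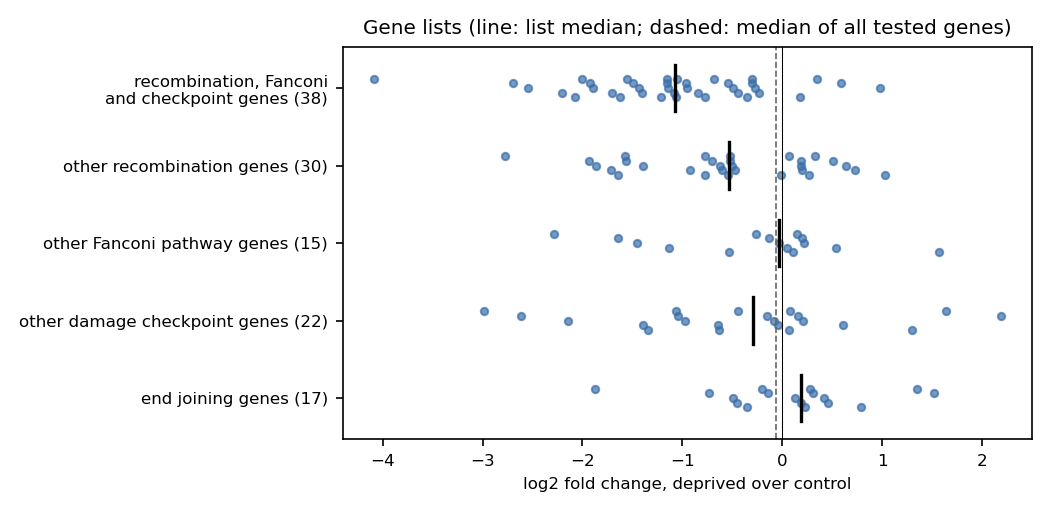
Log2 fold change of every tested gene in the 38-gene set and in 4 other lists (number of genes in brackets); the black bar is the median of the list and the dashed line the median of all tested genes. The bars stand at -1.07, -0.54, -0.03, -0.30 and 0.18 from top to bottom.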

How the data were processed

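RNA of A549 cells was sequenced in 4 libraries, 2 control and 2 deprived of glutamine. The authors deposited whole-number counts for 229420 transcripts per the file headers, and these values were treated as estimated counts: where a transcript covers every exon of another with at least 100 counts in control 1, the covering transcript had fewer counts in 43.7% of pairs. HISAT2 2.0.5, featureCounts 1.5.0-p3, DESeq2 1.20.0 and hg38 are named per the submitters' processing notes, and the tool that divided reads among transcripts is not given in the sources used here. A deposited table of long non-coding RNAs holds none of these genes and was not used.

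Counts of the 205306 transcripts matched to GENCODE 29 (98.0% to 98.2% of counts) were summed to genes, filtered with filterByExpr, scaled with TMM and tested with edgeR 4.0.16 in R 4.3.3 (quasi-likelihood fit, two-sided F test, group as the only term), with Benjamini-Hochberg adjustment and a threshold of 0.05. SE was taken as the size of the log2 fold change over the root of F. The fit was tested on simulated data. The members, the lists and the search motifs were chosen with earlier results of these data known. All 38 members are described. Of each other list the 4 genes with the smallest p are named, plus MRE11, UBE2T, CLSPN, WEE1 and TP53BP1; TOP3A, HELQ, SLX1A, SLX1B and RAD1 were named after their values were seen. Another gene that this rule names is not reported here. Replicates differed by more than counting noise (chi-square per degree of freedom 31.0 and 43.6). Strand use in counting is not given, so reads of overlapping genes on opposite strands cannot be told apart. At least 10% of exonic bases are shared with another gene in 10 of the 38. Those not described above lie opposite other genes: RAD54L (25.1%, LRRC41), FANCA (23.6%, ZNF276), FANCL (19.7%, including VRK2), ATR (16.4%, EIF2AK1P1) and FANCF (11.3%, GAS2). LRRC41 changed by -0.46, ZNF276 by 0.11 and VRK2 by 0.74 on the log2 scale. The part of these genes in the counts was not tested. Alternatives were other scalings and filters, DESeq2 1.42.0, limma-voom (limma 3.58.1), coding transcripts only, a replicate block and leaving out each library.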

Additional observations from a re-analysis of the deposited data

How the results depend on the processing

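The 38 genes were refitted under 13 alternatives. Of the 494 values, 462 kept their direction and their side of the threshold. RAD51C (-0.15) turned over with transcripts of protein-coding type only and MUS81 (-0.16) with library size only; the cause was not tested. Of the 38 genes, 29 kept both under every alternative. The others were BARD1, PALB2, RAD51C, XRCC3, SLX4, MUS81, FANCC, FANCI and CHEK2. The number of lower genes among the 38 ran from 28 to 32 when 1 library was left out, the number of higher genes from 2 to 3 and the median from -1.10 to -1.05. There the lone library of a group is assumed to vary like the others.

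With library size only, the median of all genes was -0.399 and that of the 38 genes -1.41. In that setting the other recombination genes had 2 higher and a median of -0.875, the other Fanconi genes had 10 lower, 1 higher and a median of -0.367, the other checkpoint genes had a median of -0.632, and the end joining genes had 3 higher and a median of -0.154. Upper-quartile factors put the end joining median at 0.0749. With transcripts of protein-coding type only, 4 other Fanconi genes were higher and the median of the other checkpoint genes was -0.448. Without 1 library the Fanconi median ran from -0.142 to 0.00665, and the lower end joining genes from 3 to 4. Libraries with the same replicate number showed no shared deviation (correlation of deviations -0.023), which does not tell whether the samples were paired. The fit with the replicate block gave 30 lower and 2 higher genes of the 38, with the calls of BARD1, PALB2 and RAD51C lost, and 5079 lower and 5529 higher genes in all. RMI2 and RAD54L had 27 to 156 counts in the deprived libraries, where their precision is limited.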
